A study of Mus musculus with 4 samples.

Results

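Glutathione and peroxide defence genes were followed in sorted stomach epithelium: the glutathione S-transferases, the glutathione peroxidases, the peroxiredoxins, the thioredoxin system, the superoxide dismutases, catalase, and the enzymes that make and recycle glutathione. Members were taken by gene symbol, and Gpx2 was left out by the rule. The symbols gave 54 of the 55335 rows of the deposited table. All mice were C57BL/6, 6 to 8 weeks old and of genotype Iqgap3-2A-tdTomato, in which a red fluorescent protein reports on Iqgap3. The tissue was the corpus of the stomach. Living EpCAM-positive cells were sorted into a bright fraction, IQ3pos, and a dim or dark fraction, IQ3neg, and RNA was amplified with SMART-Seq2, which copies whole transcripts. Each fraction had 2 libraries. IQ3pos_1909A and IQ3neg_1909B were each a pool of 3 mice, while IQ3pos_1910A and IQ3neg_1910B were each a pool of 4. The labels do not say whether the fractions of a pool came from the same mice, and single mice cannot be seen in pooled libraries. Values within a pool set the IQ3pos and IQ3neg libraries of the same number side by side, which does not mean that they share mice.

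Glutathione is a small thiol that cells hold at high concentration. Glutathione S-transferases attach it to reactive compounds, glutathione peroxidases spend it to reduce peroxides, and glutathione reductase restores it with NADPH. Peroxiredoxins reduce peroxides with electrons from thioredoxin, superoxide dismutases turn superoxide into hydrogen peroxide, and catalase splits hydrogen peroxide. Many of these genes are known targets of the transcription factor NRF2 (gene Nfe2l2), which is held in check by KEAP1. In the stomach they serve a surface exposed to acid and ingested chemicals, and acid-secreting parietal cells are rich in mitochondria, a source of superoxide.

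The libraries held 90714929 to 418401262 reads in genes, so the precision of all but the lowest values was set by the number of libraries and not by counting. The 20 most abundant genes took 57.9% and 63.4% of reads in the IQ3neg libraries, and 18.5% and 25.3% in the IQ3pos libraries. The deposited CPM express each gene as a share of its library, and on them the log2 difference of the median tested gene, IQ3pos minus IQ3neg, was 0.68. Values are therefore given as scaled CPM, which are the deposited CPM divided by a TMM factor for library composition. The factors were 1.42 and 1.15 for IQ3pos_1909A and IQ3pos_1910A, and 0.742 and 0.828 for IQ3neg_1909B and IQ3neg_1910B. After scaling, the median gene stood 0.10 higher in IQ3pos. Iqgap3, the sorted gene, was low: 0.155 and 8.14 scaled CPM in IQ3pos and 0.0586 and 0.546 in IQ3neg, higher in IQ3pos within each pool but overlapping between pools. The epithelial markers Epcam, Krt8, Krt18 and Cdh1 were present in every library, at 1633 to 3848 scaled CPM in sum. Those of fibroblasts summed to 0.147 to 38.3 and those of red blood cells to 0.369 to 18.7.

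As a group, these genes were more abundant in the reporter-bright cells. The 54 members together held 1.27% and 1.36% of all reads in IQ3pos_1909A and IQ3pos_1910A, against 0.239% and 0.357% in IQ3neg_1909B and IQ3neg_1910B. After scaling, their sums were 8953 and 11845 scaled CPM in IQ3pos and 3225 and 4311 in IQ3neg. Among the members with wide gaps were alpha, mu and omega class transferases (such as Gsta1, Gsta4, Gstm3 and Gsto1), genes of glutathione supply (Gclc, Gsr) and the quinone reductase Nqo1. Catalase lay the other way, as did Gpx3, which was read almost wholly from IQ3neg. Several lesser transferases lay lower in both IQ3pos libraries after scaling, but none of them did on deposited CPM.

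Of the 54 members, 48 reached the filter of a mean of 1 CPM and were tested. Both IQ3pos libraries lay above both IQ3neg libraries for 29 of the 48 (60.4%), where 25.1% of all 13019 tested genes did. For 8 members (16.7%) both IQ3pos libraries lay below, where 21.4% of all tested genes did, and the other 11 overlapped. The median log2 difference of the 48, IQ3pos minus IQ3neg, was 0.89, beside 0.10 for all tested genes. It was 0.94 within the 3-mouse pool and 1.02 within the 4-mouse pool, beside 0.01 and 0.17 for all genes. On deposited CPM, which carry the composition shift, 36 members lay above, where 40.9% of all genes did, and 2 lay below, where 14.2% did. Gpx3 is among both the 8 and the 2 that lay below. It passed the filter only through IQ3neg, where it is high, so its place there carries no weight.

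In limma 0 of the 48 members reached an adjusted p of 0.05 over all genes in either direction, and the smallest was 0.0893, for Gsta1. Among all tested genes 0.023% passed as higher and 0.192% as lower. At an unadjusted p under 0.05, limma counted 21 members (43.8%) as higher, where 6.76% of all genes were, and 1 (2.08%) as lower, where 7.79% were. On the recovered whole reads, edgeR's quasi-likelihood test called Gsto1 as higher (adjusted p = 0.0460) and 0 members as lower, with 0.0654% and 0.226% of all its genes called. The DESeq2 Wald test called 15 members as higher and Gpx3 as lower, where it called 5.45% and 8.3% of all genes. Gpx3 is also the 1 member that limma counted as lower at an unadjusted p under 0.05. It passed the filter only through IQ3neg, where it is high, so neither its call nor this count as lower carries weight. The calls of the other members depended on the tool, and with 2 libraries a group an exact permutation test over samples could not fall below 0.333. The p-values measure the spread between pooled libraries, which may be in part technical.

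**Figure D1:**
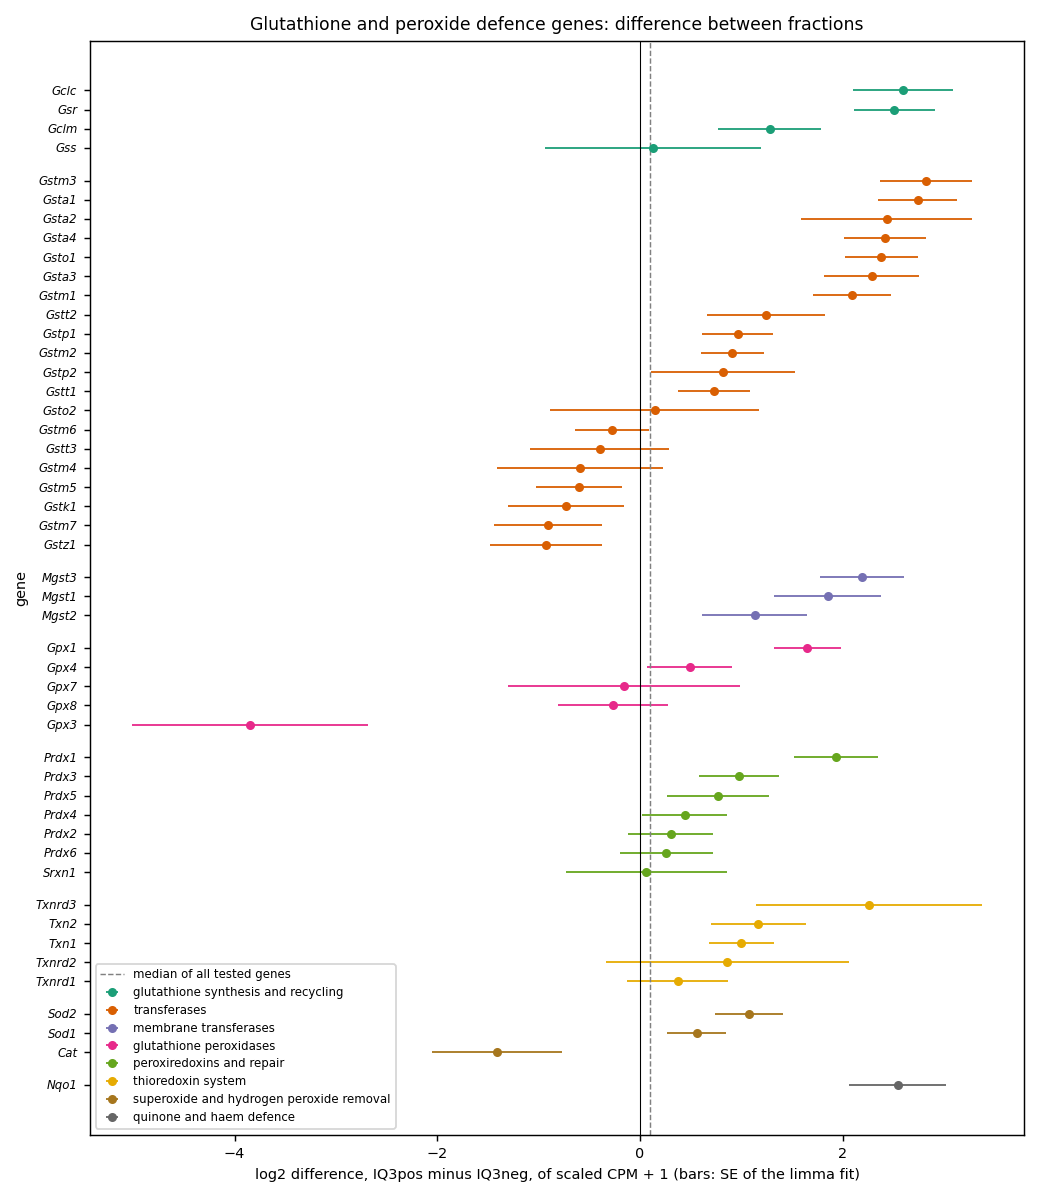
Log2 difference between IQ3pos and IQ3neg (x axis, scaled CPM + 1) for the 48 tested members, 1 row a gene, grouped by role; bars are the SE of the limma fit and the dashed line is the median of all tested genes, 0.10. Points run from −3.85 for Gpx3 to 2.82 for Gstm3, and 37 of the 48 lie above 0.

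Levels of different genes were compared per kilobase of merged exons, since a longer transcript gives more reads. In IQ3pos, Mgst3 and Gsto1 led, at a mean of 1095 and 1079 scaled CPM per kilobase, followed by Gsta4 at 894, Sod1 at 748 and Gstm1 at 714. Each of these 5 genes overlapped its neighbour in this order: Mgst3 ran from 931 to 1258, Gsto1 from 924 to 1234, Gsta4 from 687 to 1102, Sod1 from 667 to 829 and Gstm1 from 552 to 877. In IQ3neg the order was another. Sod1 stood first at 505 scaled CPM per kilobase (479 and 531), above both libraries of Mgst3 (166 and 337), Gstm2 (194 and 229) and Gsto1 (157 and 266), which overlapped among themselves.

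The promoters were read for the core of the antioxidant response element, TGACNNNGC, to which NRF2 binds with a small MAF protein. RefSeq windows on GRCm38.p6, from 250 bases before to 50 after the start, were found for 47 of the 54 members. The motif stood on either strand in 9 of these 47 genes (19.1%), beside 14.0% of all 27025 genes with a window. Of the 25 members with a window whose IQ3pos libraries both lay above, 5 (20%) held it. These 5 are Gsta3, Gclm, Prdx1, Mgst1 and Sod1. The matches that lie before the first annotated base of the gene are shown for 4 of them, followed by that of Gstm5, which held the motif and lay lower, as did Gstm7. Each stretch reads in the direction of its gene and stops at the annotated start at the latest. Capitals mark the match, which reads GCNNNGTCA where it lies on the strand opposite to the gene.
Gsta3, chr1:21240424-21240512, plus strand: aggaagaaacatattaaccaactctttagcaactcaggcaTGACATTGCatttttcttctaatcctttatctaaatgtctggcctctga
Gclm, chr3:122245383-122245471, plus strand: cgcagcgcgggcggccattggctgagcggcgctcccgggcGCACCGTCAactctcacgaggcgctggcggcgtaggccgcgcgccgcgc
Prdx1, chr4:116685426-116685514, plus strand: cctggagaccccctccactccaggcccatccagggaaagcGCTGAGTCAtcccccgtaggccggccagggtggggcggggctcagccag
Sod1, chr16:90220666-90220753, plus strand: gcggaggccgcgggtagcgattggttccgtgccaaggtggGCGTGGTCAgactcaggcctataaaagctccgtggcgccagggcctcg
Gstm5, chr3:107895772-107895820, plus strand: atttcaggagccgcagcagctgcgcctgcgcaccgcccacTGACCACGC
The matches begin 121, 134, 133 and 56 bases before the RefSeq start in Gsta3, Gclm, Prdx1 and Sod1, and 42 bases before it in Gstm5. Those of Mgst1 and Gstm7, 56 and 129 bases before it, lie within a gene as GENCODE draws it and are not printed. After scaling, the same letters stood near genes that were higher and near genes that were lower in IQ3pos. On deposited CPM the groups overlapped for Gstm5 and Gstm7. A match is a run of letters and not a measured binding site. Nqo1, Gsto1, Gsta1 and Gstm1 have none in this window, which says nothing of sites farther out.

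Values below are scaled CPM per library, the 3-mouse pool first and the 4-mouse pool second, and differences are log2 differences of scaled CPM + 1. Of the genes of glutathione supply, 3 of 4 stood higher in both IQ3pos libraries. Gclc, the catalytic subunit of the rate-limiting enzyme of glutathione synthesis, stood at 90.9 and 74.9 in IQ3pos and 14.1 and 11.7 in IQ3neg. That is a gap of 6.45-fold and 6.41-fold within the pools, a difference of 2.59 (SE 0.49, limma adjusted p = 0.160), with the groups well apart. Gclm, the modifier subunit of the same enzyme, stood at 83.9 and 70.8 against 43.4 and 22.3, a smaller difference of 1.28 (SE 0.51). The 2 subunits were thus apart by unlike amounts: Gclc had 1.08 and 1.06 reads per read of Gclm in IQ3pos and 0.325 and 0.523 in IQ3neg, a ratio that no scaling of libraries alters.

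Gsr, glutathione reductase, stood at 140 and 168 in IQ3pos and 26.2 and 26.0 in IQ3neg, a difference of 2.51 (SE 0.40, limma adjusted p = 0.105). The IQ3neg libraries were nearly equal, and the gap was 5.35-fold and 6.46-fold within the pools. Gss, which joins glycine to complete glutathione, did not follow. It stood at 7.62 and 72.7 in IQ3pos and 16.6 and 29.0 in IQ3neg, lower in the 3-mouse pool and higher in the 4-mouse pool, with overlapping groups and a difference of 0.13 (95% interval −2.47 to 2.73).

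The transferases held 22 of the members, of which 20 were tested, and only some classes pointed 1 way. All 4 alpha class genes stood higher in both IQ3pos libraries, with differences from 2.28 to 2.74. Gsta4, whose enzyme conjugates the lipid peroxidation product 4-hydroxynonenal, stood at 671 and 1076 in IQ3pos and 121 and 208 in IQ3neg (difference 2.41, SE 0.41, limma adjusted p = 0.117). Gsta1 stood at 385 and 275 against 57.1 and 40.3, 6.74-fold and 6.84-fold within the pools, which was the smallest limma adjusted p of the members (0.0893). Gsta3 stood at 150 and 129 against 37.5 and 20.5. Gsta2, a close copy of Gsta1 whose reads may be shared with it, was much lower, at 20.5 and 24.8 against 5.54 and 1.91.

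Gsto1, an omega class enzyme that acts as a thiol transferase and reduces dehydroascorbate, stood close to Mgst3 per kilobase in IQ3pos. It had 1092 and 1459 scaled CPM in IQ3pos and 185 and 314 in IQ3neg, with a wide gap between the groups. The deposited CPM of the same gene were 1550 and 1671 against 138 and 260. The difference was 2.38 on the scaled values (SE 0.36, limma adjusted p = 0.0996). Its neighbour Gsto2 was near the floor of the filter and went opposite ways in the pools, at 2.42 and 0.00938 in IQ3pos and 0.0703 and 1.64 in IQ3neg.

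**Figure D2:**
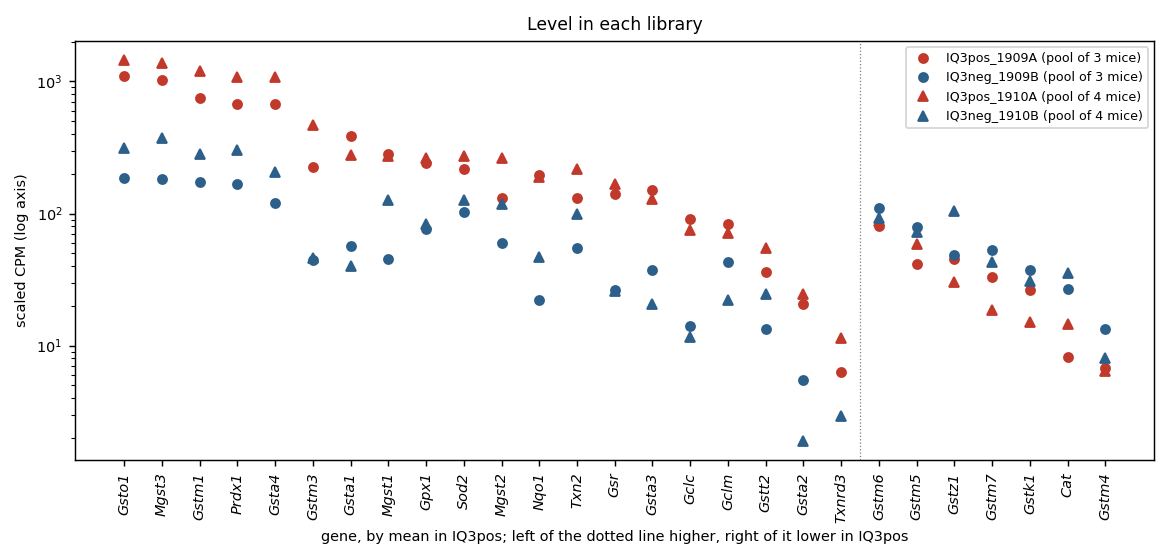
Scaled CPM (log axis) in each library for the tested members with a log2 difference of at least 1 (left of the dotted line) and those with both IQ3pos libraries below both IQ3neg libraries (right), except Gpx3, with red for IQ3pos, blue for IQ3neg, circles for the pool of 3 mice and triangles for that of 4. Left of the line the red points lie above the blue ones for every gene, from Gsto1 at 1092 and 1459 down to Txnrd3 at 6.28 and 11.3, whose IQ3neg_1909B value of 0 is not drawn.

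The mu class split within a single gene cluster. Its 7 genes lie side by side on chromosome 3 of GRCm38, from the start of Gstm5 at 107895821 to the end of Gstm4 at 108044894, in the order Gstm5, Gstm7, Gstm6, Gstm3, Gstm2, Gstm1 and Gstm4. The 3 neighbours Gstm3, Gstm2 and Gstm1 were higher in both IQ3pos libraries and the 4 outer genes were lower in both. Gstm3 stood at 225 and 470 in IQ3pos and 44.7 and 45.9 in IQ3neg, the largest difference among members higher in IQ3pos (2.82, SE 0.45, limma adjusted p = 0.105). Gstm1 stood at 755 and 1198 against 175 and 283 (2.09, SE 0.39), and Gstm2 at 411 and 548 against 232 and 273 (0.91, SE 0.31).

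Gstm5, by contrast, stood at 41.2 and 59.2 in IQ3pos and 79.2 and 71.9 in IQ3neg (−0.60, SE 0.43). Gstm7 stood at 33.0 and 18.8 against 52.8 and 43.0 (−0.91, SE 0.53), Gstm4 at 6.72 and 6.42 against 13.3 and 8.11 (−0.59, SE 0.82), and Gstm6 at 80.0 and 87.1 against 111 and 92.3 (−0.28, SE 0.37). These small differences depended on scaling: on deposited CPM, Gstm4, Gstm5 and Gstm6 turned to 0.04, 0.09 and 0.42, and Gstm6 was then higher in both IQ3pos libraries.

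What did not rest on scaling was the gap of Gstm1, Gstm2 and Gstm3 to Gstm5, as ratios within a library show. Such ratios do not give the direction of either gene. Gstm1 had 18.3 and 20.2 reads per read of Gstm5 in IQ3pos and 2.21 and 3.93 in IQ3neg. Gstm3 had 5.46 and 7.93 against 0.564 and 0.638, so that it outnumbered Gstm5 in IQ3pos and was outnumbered by it in IQ3neg. Gstm2 had 9.97 and 9.25 against 2.93 and 3.802. Gstm4, at 0.163 and 0.108 against 0.168 and 0.113, kept close to Gstm5 within each pool. Gstm6 (1.94 and 1.47 against 1.40 and 1.28) was a little above it, and Gstm7 (0.802 and 0.317 against 0.666 and 0.598) overlapped. Mu class genes are alike in sequence, and how reads that fit more than 1 of them were treated is not given in the sources used here.

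**Figure D3:**
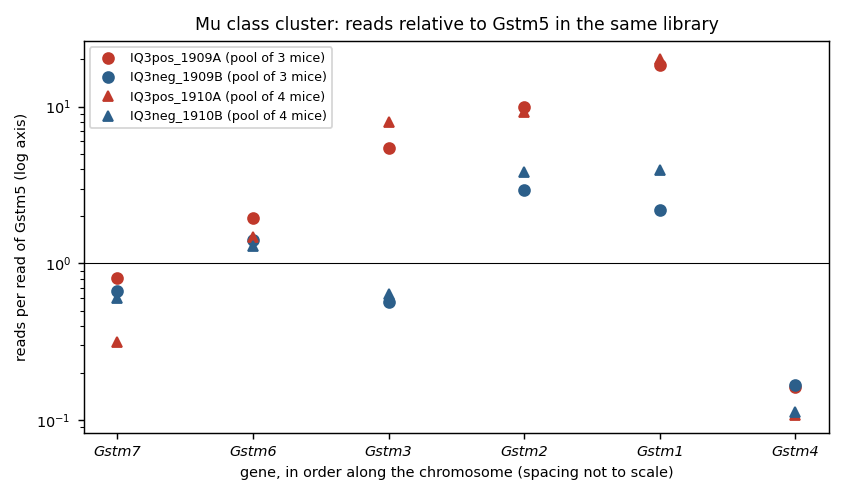
Reads of each mu class gene per read of Gstm5 in the same library (log axis), in order along chromosome 3, with red for IQ3pos, blue for IQ3neg, circles for the pool of 3 mice and triangles for that of 4. The red points stand clear of the blue ones at Gstm3, Gstm2 and Gstm1, as at Gstm1 with 18.3 and 20.2 against 2.21 and 3.93, and nearly coincide within each pool at Gstm4.

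The remaining transferases differed less. Gstp1, the pi class enzyme, stood at 158 and 192 in IQ3pos and 82.3 and 96.0 in IQ3neg (difference 0.97, SE 0.35), and its copy Gstp2 at 18.2 and 19.5 against 7.24 and 14.4. The theta class genes Gstt1 and Gstt2 were higher in both IQ3pos libraries, by 0.73 and 1.24, while Gstt3 overlapped. Gstz1, which isomerizes maleylacetoacetate in tyrosine breakdown, stood at 44.9 and 30.4 against 48.2 and 105. It was thus nearly level in the 3-mouse pool and 0.290-fold in the 4-mouse pool. Gstk1, a mitochondrial and peroxisomal transferase, stood at 26.3 and 15.2 against 37.1 and 30.9. For Gstz1 and Gstk1 the groups overlapped on deposited CPM.

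All 3 microsomal transferases, membrane enzymes of the MAPEG family, were higher in both IQ3pos libraries. Mgst3 stood at 1022 and 1380 in IQ3pos and 182 and 370 in IQ3neg (difference 2.19, SE 0.41, limma adjusted p = 0.160). Mgst1, which protects membranes from lipid peroxides, stood at 284 and 271 against 45.6 and 127. Its gap was 6.23-fold in the 3-mouse pool and 2.14-fold in the 4-mouse pool, as the IQ3neg libraries stood far apart. Mgst2 stood at 131 and 263 against 60.0 and 118, 2.18-fold and 2.22-fold within the pools, although the lower IQ3pos value came near to the higher IQ3neg one.

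Of the tested glutathione peroxidases, Gpx1 and Gpx4 were higher in both IQ3pos libraries and Gpx7 and Gpx8 overlapped. Gpx3 entered the tests only through IQ3neg. Gpx1, the cytosolic selenoenzyme that reduces hydrogen peroxide, stood at 241 and 262 in IQ3pos and 76.0 and 83.0 in IQ3neg. Its libraries were even within each fraction, and the gap was 3.17-fold and 3.16-fold (difference 1.65, SE 0.33, limma adjusted p = 0.166). Gpx4, which reduces lipid peroxides in membranes and guards against ferroptosis, stood at 66.9 and 99.3 against 56.5 and 58.9, a difference of 0.49 (95% interval −0.53 to 1.52). Gpx1 had 3.59 and 2.64 reads per read of Gpx4 in IQ3pos and 1.35 and 1.41 in IQ3neg. Gpx8, of the endoplasmic reticulum, overlapped, at 22.1 and 41.0 against 38.2 and 34.6. Gpx7, its relative, had 0 reads in both libraries of the 3-mouse pool and stood at 2.38 and 3.23 in IQ3pos_1910A and IQ3neg_1910B.

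Gpx3, the secreted peroxidase of plasma, was read almost wholly from the IQ3neg libraries. It stood at 5.33 and 32.2 scaled CPM there, on 455 and 11171 reads, while IQ3pos_1909A had 2 reads and IQ3pos_1910A had 0, which allows up to 0.0107 deposited CPM. It entered the tests only through IQ3neg, and its fitted difference of −3.85 depends on the pseudocount and is no bound. The IQ3neg libraries were themselves far apart. The marker sums of some other cell types were also lower in IQ3pos, here those of enteroendocrine cells, tuft cells and fibroblasts. Those of chief cells, and of macrophages within each pool, were lower too and are given below. The 6 enteroendocrine markers summed to 254 and 170 scaled CPM in IQ3pos and 21785 and 12880 in IQ3neg. Of these, 5 of 6 were lower in both IQ3pos libraries, and Gast had 0 reads in both libraries of the 3-mouse pool. The 5 tuft cell markers summed to 390 and 113 against 498 and 1343, with 4 of 5 lower. The 5 fibroblast markers summed to 0.924 and 0.147 against 38.3 and 1.82, with 2 of 5 lower, Dcn at 0 reads in IQ3pos_1910A and Pdgfra at 0 in IQ3neg_1910B. Their part in the Gpx3 result was not tested.

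All 6 peroxiredoxins had positive differences, but only 3 had groups that stood apart after scaling. Prdx1, the main cytosolic peroxiredoxin, stood at 678 and 1086 in IQ3pos and 166 and 300.4 in IQ3neg (difference 1.94, SE 0.41, limma adjusted p = 0.182). Prdx2, the other cytosolic form, stood at 149 and 167 against 93.2 and 174, with overlap and a difference of 0.30 (95% interval −0.71 to 1.32). Prdx1 thus had 4.56 and 6.502 reads per read of Prdx2 in IQ3pos and 1.78 and 1.72 in IQ3neg. Of the mitochondrial forms, Prdx3 stood at 88.3 and 112 against 49.6 and 50.6, and Prdx5 at 157 and 68.8 against 64.7 and 56.75. Prdx4, of the endoplasmic reticulum, stood at 74.3 and 112 against 60.3 and 74.4, its lower IQ3pos value just under the higher IQ3neg one. Prdx6 differed by 0.26 and overlapped. Srxn1, sulfiredoxin, which repairs overoxidized peroxiredoxins, was level, at 9.14 and 9.09 against 11.0 and 6.84.

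Of the thioredoxin system, the small thiol proteins stood higher in both IQ3pos libraries. Txn1, cytosolic thioredoxin, stood at 233 and 261 in IQ3pos and 133 and 114 in IQ3neg (1.76-fold and 2.29-fold within the pools, limma adjusted p = 0.281). Txn2, its mitochondrial partner, stood at 131 and 216 against 55.1 and 99.9 (1.17, SE 0.47). The thioredoxin reductases, which recharge them, were less clear. Txnrd1, the cytosolic form, overlapped at 56.0 and 69.1 against 66.0 and 34.7 (0.37, 95% interval −0.84 to 1.58), and Txnrd2, the mitochondrial form, overlapped at 3.00 and 16.8 against 1.499 and 7.61 (0.86, 95% interval −2.06 to 3.79). Txnrd3 stood at 6.28 and 11.3 against 0 and 2.93, with the groups apart. Gsr and Txnrd1, which draw on NADPH for glutathione and thioredoxin respectively, thus parted: Gsr had 2.50 and 2.43 reads per read of Txnrd1 in IQ3pos and 0.396 and 0.748 in IQ3neg.

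Both intracellular superoxide dismutases were higher in both IQ3pos libraries by modest amounts. Sod1, the cytosolic copper and zinc enzyme, stood at 427 and 532 in IQ3pos and 307 and 340 in IQ3neg (difference 0.56, SE 0.29, limma adjusted p = 0.436). Sod2, the mitochondrial manganese enzyme, stood at 218 and 271 against 104 and 128, 2.11-fold and 2.13-fold within the pools (1.08, SE 0.34, limma adjusted p = 0.277). Sod2 had 0.510 reads per read of Sod1 in each IQ3pos library and 0.337 and 0.375 in IQ3neg. Catalase lay the other way. Cat, which splits hydrogen peroxide in peroxisomes, stood at 8.18 and 14.6 against 26.7 and 35.3 (−1.41, SE 0.64, limma adjusted p = 0.374), lower in both IQ3pos libraries on deposited CPM too. Red blood cells are rich in catalase. The haemoglobin genes and Alas2 summed to 2.36 and 0.369 scaled CPM in IQ3pos and 18.7 and 3.86 in IQ3neg. Hbb-bs and Hbb-bt had 0 reads in IQ3pos_1910A and Alas2 had 0 in IQ3pos_1909A. Although 4 of these 5 genes were lower in both IQ3pos libraries, only 2 of the 5 reached the filter. The part of red blood cells in the Cat result was not tested.

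Nqo1, a quinone reductase that serves widely as a readout of NRF2, stood at 197 and 190 in IQ3pos and 22.4 and 46.6 in IQ3neg. The gap was 8.79-fold and 4.07-fold within the pools, a difference of 2.54 (SE 0.47, limma adjusted p = 0.155). Hmox1, haem oxygenase, another NRF2 target that is strong in macrophages, stayed under the filter and went the other way, with 6 and 2 reads in IQ3pos and 16 and 543 in IQ3neg. The macrophage markers summed to 180 and 60.8 scaled CPM in IQ3pos and 477 and 88.9 in IQ3neg, with 2 of 5 lower and 1 higher in both IQ3pos libraries and none at 0 reads in any, and their part in the Hmox1 result was not tested.

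The other members under the filter were Gstt4, Gstp3, Gpx5, Gpx6 and Sod3. Gstt4 had 0 reads in all 4 libraries, which allows up to 0.00717 to 0.0331 deposited CPM. Gstp3, Gpx5 and Gpx6 had at most 8 reads in any library. Sod3, the extracellular dismutase, had 94 reads in IQ3pos_1909A, 146 in IQ3neg_1910B and 0 in the others.

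By place of the protein, differences were spread widely, and the groups are small beside the background of 25.1% of all genes above, 21.4% below and a median of 0.10. The 6 members assigned to mitochondria (Sod2, Prdx3, Prdx5, Txn2, Txnrd2 and Gstk1) had a median of 0.92, with 4 higher and Gstk1 lower in both IQ3pos libraries. The 6 of the endoplasmic reticulum or its membrane (Prdx4, Gpx7, Gpx8 and the 3 microsomal transferases) had a median of 0.78, with 3 higher and 0 lower. Of the 2 secreted forms, Gpx3 was tested and Sod3 was not.

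**Figure D4:**
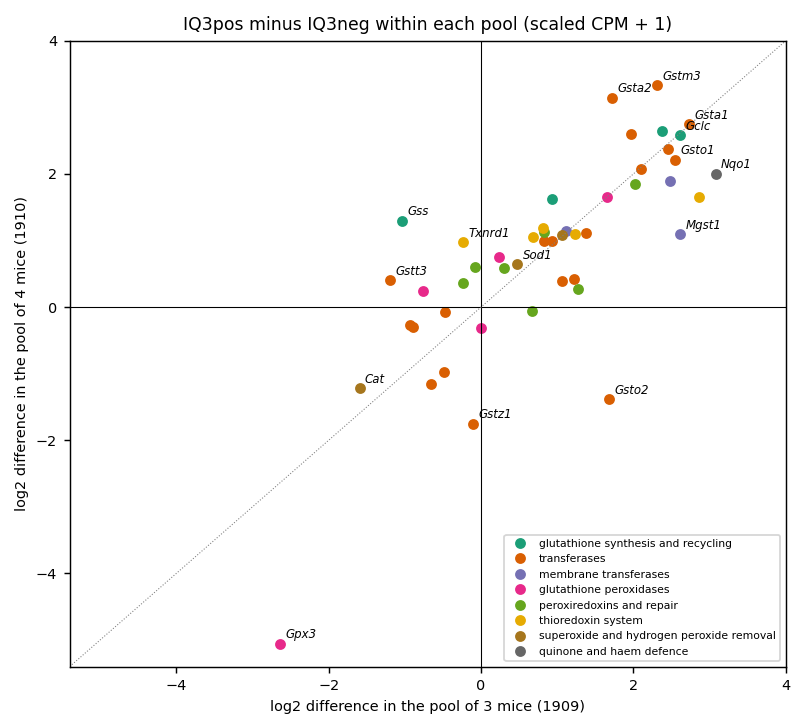
Log2 difference of scaled CPM + 1 between IQ3pos and IQ3neg within the pool of 3 mice (x axis) and the pool of 4 mice (y axis), 1 point a tested member, coloured by role; the dotted line marks equal differences. Most points lie to the upper right, where 31 members were higher in both pools, while 8 were lower in both and 8 went opposite ways, among them Gss, Gstt3 and Gsto2.

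In both pools 31 of the 48 were higher, where 35.6% of all tested genes were, and 8 were lower, where 28.1% of all genes were (Cat, Gpx3, Gstk1, Gstm4, Gstm5, Gstm6, Gstm7 and Gstz1). On the log2(scaled CPM + 1) scale, 19 were at least 2-fold higher in both, where 8.81% of all genes were. The 8 of opposite sign held low and well expressed genes alike: Gss, Gsto2, Gstt3, Gpx8, Prdx2, Prdx6, Srxn1 and Txnrd1. Gpx7, at 0 in the 3-mouse pool, is in none of these counts. Gpx3 entered the tests only through IQ3neg, so its count as lower carries no weight.

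Markers of cell types also differed between the fractions, in both directions. The 4 pit cell markers summed to 6716 and 8514 scaled CPM in IQ3pos and 1367 and 1647 in IQ3neg, and all 4 were higher in both IQ3pos libraries. The 6 parietal cell markers summed to 3100 and 2897 against 655 and 748, with 4 of 6 higher and Slc26a7 at 0 reads in IQ3neg_1909B. The 6 markers of dividing cells summed to 715 and 2140 against 116 and 221, all higher. The 3 mucous neck markers summed to 3644 and 7547 against 1591 and 2618, with 1 of 3 higher. Chief cell markers summed to 35881 and 17145 against 558518 and 487343, with 5 of 6 lower. Of the 5 tuft cell markers, 4 were lower. The 7 genes of cell stress after dissociation summed to 637 and 663 against 1138 and 1058, with 5 of 7 lower. In bulk libraries of a sorted mixture, a shift in the cells present and a shift in RNA per cell cannot be told apart, and the part of these cell types in the members' differences was not tested.

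Of a wider list of 54 genes of the same pathway, 53 were found as 1 row and 48 were tested. Limma called 0 of them at an adjusted p of 0.05, with 5 higher (10.4%) and 3 lower (6.25%) at an unadjusted p under 0.05, beside 6.76% and 7.79% of all genes. Both IQ3pos libraries lay above for 22 (45.8%) and below for 9 (18.8%), where 25.1% and 21.4% of all genes did. The lower genes of both counts include Chac1, which entered the tests only through IQ3neg. The median difference of the 48 was 0.39. Nfe2l2 itself, named after its value was seen, stood at 312 and 324 in IQ3pos and 70.2 and 95.5 in IQ3neg (1.94, limma adjusted p = 0.131). The gene of its inhibitor, Keap1, also named after its value was seen, stood at 9.31 and 14.4 against 19.3 and 16.6. Its difference was −0.59 (limma adjusted p = 0.706), and its groups overlapped on deposited CPM. The 7 genes of NRF2 and its partners had a median of −0.25, with 2 higher and 2 lower in both IQ3pos libraries. The 7 tested genes of NADPH supply had a median of 1.11, with 6 higher in both IQ3pos libraries. In limma 1 of the 7 had an unadjusted p under 0.05. Me1, malic enzyme, also named after its value was seen, stood at 28.9 and 75.7 against 12.1 and 10.5. Its difference was the largest of the 7 (1.97, limma adjusted p = 0.291).

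Of the 10 tested genes of cysteine supply, glutathione turnover and export, 4 were lower in both IQ3pos libraries (Anpep, Chac1, Ggt1 and Slc3a2) and 1, the exporter Abcc4, was higher, with a median of −0.18. Anpep, an aminopeptidase that cleaves the cysteinylglycine left from glutathione, stood at 19.7 and 9.84 in IQ3pos and 116 and 170 in IQ3neg (−3.24, limma adjusted p = 0.115). Chac1, which degrades glutathione inside cells, stood at 0.0310 and 0.0281 against 3.91 and 5.95. It had 4 and 9 reads in IQ3pos and entered the tests only through IQ3neg, so its count as lower carries no weight. Slc7a11, the cystine carrier, had at most 1.18 scaled CPM in any library and was not tested. With the highest mean scaled CPM of the list, not per length, Selenop and Fth1 are given as well. Selenop, a secreted selenium carrier, stood at 586 and 770 against 856 and 854, but on deposited CPM it was the higher in IQ3pos, at 832 and 882 against 635 and 707. Fth1, ferritin heavy chain, stood at 864 and 829 against 679 and 612.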

How the data were processed

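SMART-Seq2 libraries from 2 IQ3pos and 2 IQ3neg samples were compared. The authors deposited CPM per gene symbol, with the same sum in each library. The submitters' processing notes name STAR 2.7.1a, featureCounts, Subread 2.0.0 and edgeR on GRCm38/mm10, with no roles. The sources used here give no annotation, strand setting or rule for multi-mapped reads. Each deposited CPM value above 0 was within 0.05 of a whole number of reads (100% in each library), so whole reads were recovered.

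Scaled CPM are deposited CPM divided by TMM factors (edgeR 4.0.16). Differences of log2(scaled CPM + 1) were tested by limma-trend in limma 3.58.1 under R 4.3.3. The 13019 genes whose mean deposited CPM reached 1 entered, two-sided, with Benjamini-Hochberg adjustment over all of them at 0.05. Fold changes on this scale understate low genes. There were 2 residual and 4.07 prior degrees of freedom. The design had foreseen CPM. Counts were also tested with edgeR (quasi-likelihood, legacy=FALSE) and DESeq2 1.42.0.

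The members and lists were chosen with earlier results of these data known. Each library's value was to be given for members past the threshold, the 3 most abundant and the most different of each role, and paralogs lying apart in opposite directions; other members named were chosen after their values were seen. The pairs of members for read ratios were not set in the design, and no share of all gene pairs stands beside them. Ratios of Gsta1 to Gsta2 and of Gstp1 to Gstp2 were also computed and overlapped between the fractions. All 54 members matched GENCODE vM21, whose basic annotation gave positions and merged exon lengths. The 95% intervals of differences are limma's, from the spread between libraries, while limits at 0 reads (3 reads) cover counting error only.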

Additional observations from a re-analysis of the deposited data

How the results depend on the processing

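The number of members called higher by limma, 0 as reported, was 1 with a pseudocount of 5 (Gsta1; 15 of all genes called higher) and 5 with a minimum mean of 5 CPM (Gsr, Gsta1, Gsta4, Gstm3 and Gsto1; 34 of all genes). It was 1 in edgeR's quasi-likelihood test, 15 in the DESeq2 Wald test, and 0 under the other scalings, a pseudocount of 0.1, no filter and without each library in turn. The number called lower was 1 in DESeq2 (Gpx3, which entered the tests only through IQ3neg) and 0 elsewhere. With the library number as a replicate block, limma called 13 members higher and 0 lower (265 and 186 of all genes), but edgeR with the same block called 0. The numbers do not show that the libraries are paired: only 2 pairs exist, whose deviations from the group means correlated at 0.155 across genes.

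The members' median difference of 0.89 became 1.54 on deposited CPM, 0.79 with DESeq2 size factors, 0.65 without the 20 most abundant genes, 0.82 with a pseudocount of 5, 0.77 with no filter, 0.79 in edgeR and 0.72 in edgeR with the block, and ran from 0.77 to 1.11 without each library in turn. Less the median of all genes it ran only from 0.73 to 0.92. Members with both IQ3pos libraries below numbered 2 in place of 8 on deposited CPM. On deposited CPM, Gpx8 turned to 0.42, Gstm4 to 0.035, Gstm5 to 0.089 and Gstm6 to 0.42. Without each library in turn, Gpx8 ran from −0.70 to 0.17 (positive without IQ3pos_1909A), Prdx2 from −0.14 to 0.75 (negative without IQ3neg_1909B) and Txnrd1 from −0.085 to 0.83 (negative without IQ3neg_1910B). The cause was not tested. The other 24 of the 30 members named by the rule kept their direction under every alternative. Depth limits the members under the filter and the tested members with 0 reads in a library (Gpx3, Gpx7 and Txnrd3).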
